A study of Mus musculus with 8 samples.

Results

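Replication initiation sites (ISs) that were called in each of the 3 RIF1-null lists of CH12 cells but not in the wild-type list are described here. They were chosen by list membership. An IS of the Rif1KO list was taken if it lay on an autosome other than chromosomes 10, 15 and 16, overlapped by at least 1 bp an IS in both the Rif1KO_shLacZ and the Rif1KO_shMcm6 list, and overlapped no IS of the WT list. The rule found 7356 members among the 33600 ISs of the Rif1KO list, or 27.1% of the 27145 Rif1KO ISs on the 16 autosomes used.

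Initiation was mapped by sequencing of short nascent strands (SNS-seq) in the CH12 line, a mouse B cell lymphoma line that can be induced to switch antibody class, grown with IL4, CD40 and TGF beta stimulation. The 8 libraries comprised 2 from each of 4 groups. One was WT and one (Rif1KO) lacked Rif1. The others lacked Rif1 and also carried a short hairpin, either against Mcm6 (Rif1KO_shMcm6) or, as its control, against the bacterial gene LacZ (Rif1KO_shLacZ). All RIF1-null groups therefore shared the Rif1 deletion, and the hairpins were given by lentivirus. RIF1-deficient CH12 lines were clonal derivatives of the parental line, and the clone used for SNS-seq was not given in the sources used here. Levels of RIF1 and MCM6 were not analysed here, so the labels could not be checked against them.

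Replication begins at many places in the genome. In G1 phase the MCM helicase, of which MCM6 is a subunit, is loaded at potential origins in excess of those that will fire, and a part of these is activated in S phase. RIF1 is a chromatin protein that brings PP1 phosphatase to origins, opposes their activation by the DDK kinase, and shapes the order in which domains replicate. SNS-seq isolates short leading strands that still carry an RNA primer and so resist lambda exonuclease. The read density at an IS is taken as the frequency of initiation there in the population.

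Sequence windows of 200 bp around the middle of 7 members are given below (mm9, plus strand, 5′ to 3′), because the results turn on how often the members are active and on what sequence they hold. Capitals mark a G-run motif, defined as 4 runs of at least 3 G separated by 1 to 7 bases on either strand, so that runs of C in capitals are G-runs of the other strand. Such motifs can fold into G-quadruplexes and are frequent at mouse origins. The first sequence comes from a member among the 6 with the highest density in Rif1KO cells, in an intron of Colq, which encodes the collagen tail of acetylcholinesterase.
Colq intron, chr14:32339862-32340061: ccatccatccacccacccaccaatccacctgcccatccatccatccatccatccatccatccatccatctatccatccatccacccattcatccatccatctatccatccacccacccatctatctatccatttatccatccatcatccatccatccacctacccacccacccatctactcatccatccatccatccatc
The next 2 had the largest gain from WT to Rif1KO cells among members with at least the members' median density, and both are intergenic.
Intergenic, far from Pcdh9, chr14:93189901-93190100: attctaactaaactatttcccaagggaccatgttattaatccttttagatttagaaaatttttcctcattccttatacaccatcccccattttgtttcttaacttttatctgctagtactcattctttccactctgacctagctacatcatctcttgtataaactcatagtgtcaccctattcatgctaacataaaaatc
Near Dclk3, chr9:111426578-111426777: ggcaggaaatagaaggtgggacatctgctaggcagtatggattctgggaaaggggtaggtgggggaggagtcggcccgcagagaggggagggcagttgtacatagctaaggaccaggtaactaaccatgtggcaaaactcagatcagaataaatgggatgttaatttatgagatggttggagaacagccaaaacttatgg
The next 3 had, among members with at least the members' median density, the 2 largest gains and the largest loss upon MCM6 depletion, and of these the second and the last lie in introns of Macrod2 and Slc24a4.
Near Lphn2, chr3:148461211-148461410: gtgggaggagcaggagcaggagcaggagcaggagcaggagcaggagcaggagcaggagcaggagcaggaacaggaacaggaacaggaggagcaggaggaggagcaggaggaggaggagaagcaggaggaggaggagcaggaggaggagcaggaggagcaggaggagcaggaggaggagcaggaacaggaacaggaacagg
Macrod2 intron, chr2:140478165-140478364: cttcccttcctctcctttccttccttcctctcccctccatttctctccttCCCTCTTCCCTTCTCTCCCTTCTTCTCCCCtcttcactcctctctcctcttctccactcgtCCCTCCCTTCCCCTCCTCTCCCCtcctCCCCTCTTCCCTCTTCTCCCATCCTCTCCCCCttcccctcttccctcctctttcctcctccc
Slc24a4 intron, chr12:103476281-103476480: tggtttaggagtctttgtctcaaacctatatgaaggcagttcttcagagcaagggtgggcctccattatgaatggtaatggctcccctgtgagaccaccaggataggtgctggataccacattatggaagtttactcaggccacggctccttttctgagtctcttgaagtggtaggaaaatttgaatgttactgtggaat
The last is the promoter member with the highest Rif1KO density, at Tnpo2, which encodes a nuclear import receptor.
Tnpo2 promoter, chr8:87561322-87561521: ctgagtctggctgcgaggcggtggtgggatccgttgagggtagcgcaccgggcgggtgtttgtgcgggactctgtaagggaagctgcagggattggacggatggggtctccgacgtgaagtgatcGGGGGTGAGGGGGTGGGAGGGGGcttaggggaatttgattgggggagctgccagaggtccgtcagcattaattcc
These windows differ widely. Their GC content ran from 33% in the window far from Pcdh9 to 63.5% in the window near Lphn2. The Colq window is a run of CCAT repeats and the Lphn2 window a run of GGAGCA and GGA repeats, while the Tnpo2 window holds 12 CpG dinucleotides and 1 G-run motif.

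The Rif1KO list held 10449 ISs that were not in the WT list, and 7356 of them, the members, recurred in both hairpin lists (70.4%, 95% Wilson interval 69.5 to 71.3%). Of the Rif1KO ISs that were in the WT list, 76.0% recurred (75.3 to 76.6%). These 12681 ISs, called in all 4 lists, are the comparison set used below. The hairpin lists were the longer ones, with 84516 and 97063 ISs on the same autosomes against 21009 in WT cells. Intervals here and below count ISs, which are not independent along a chromosome, and replicate error could not be given because the files hold 1 pooled value per condition.

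The members also carried reads in cells with RIF1. Their median density was 4.06 log2 RPM in WT cells (5th to 95th percentile 3.50 to 4.97), which is 56 reads as recovered from the values, and 4.21 log2 RPM in Rif1KO cells (3.72 to 5.07), which is 69 reads. ISs in all 4 lists had medians of 4.72 in WT and 4.70 in Rif1KO cells, with 88 and 97 reads. No member lacked reads in WT cells, and the lowest WT value was 21 reads. Of the 7356 members, 52.3% (51.2 to 53.4%) had a WT density at or above the 5th percentile of ISs in all 4 lists, and 9.72% (9.06 to 10.4%) were at or above the median of that set. The WT densities of the sets thus overlapped broadly, although one set was in the WT list and the other was not. Because calling used these reads, the levels are a description of what the rule selected.

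**Figure D1:**
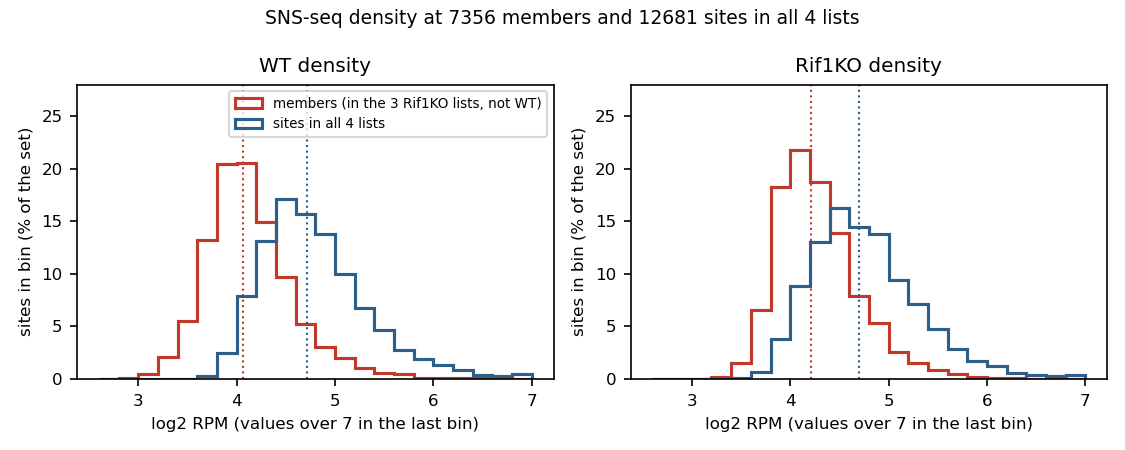
Histograms of SNS-seq density (x axis, log2 RPM) in WT cells (left) and Rif1KO cells (right) for 7356 members (red) and 12681 ISs in all 4 lists (blue), with the share of each set per bin on the y axis and dotted lines at the medians. The members sit lower in both groups of cells, at medians of 4.06 and 4.21 against 4.72 and 4.70, and the distributions overlap.

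Rif1KO density exceeded WT density at 5476 members (74.4%) and was lower at 1880 (25.6%). The median log2 difference was 0.15 (95% order-statistic interval 0.14 to 0.15), a 1.11-fold change, with a range from -0.72 to 1.24. At the 1.5-fold threshold used by the study, 202 members were higher in Rif1KO cells (2.75%, 2.40 to 3.14%), where 0.945% of the ISs of the table on the same autosomes and 2.27% on all chromosomes were. Another 3 were lower (0.0408%), where 1.35% on the same autosomes and 2.7% on all chromosomes were. At ISs in all 4 lists the median was -0.022. The rule used this contrast, so nothing is read from these shares. The standard deviation of the difference over members was 0.23, and the median standard error from the recovered read numbers was 0.26. With a spread below the counting error, more reads may lie behind each value than the recovered number, for example where replicates were averaged. The rule also selects on this difference, and over all ISs of the table on the same autosomes its standard deviation was 0.25. Neither was tested. Read numbers and counting errors given here are therefore nominal.

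Absence from the WT list does not by itself show that no WT peak was called. The authors numbered the peaks of each replicate along the genome before they took the consensus and kept the clustered peaks, so gaps in the numbering show how many peaks were left out between listed ISs. Of 46818 and 46482 WT peaks or more in replicates 1 and 2, 25909 and 25887 remained in the list. Of the 7346 members with a WT IS on both sides, 437 (5.95%) lay in a stretch where neither WT replicate had an unlisted peak, and 1702 (23.2%) where at least 1 replicate had none. Counting members against unlisted peaks within each stretch, at least 1475 members (20.1%) had no peak in replicate 1 and at least 1533 (20.9%) none in replicate 2. For the rest, whether a WT peak was present but dropped cannot be read from the list. The 437 members with no WT peak in either replicate had a median WT density of 3.87 log2 RPM, 49 reads, and a median log2 difference of 0.27 (0.24 to 0.29) from WT to Rif1KO cells, the contrast that the rule used. The other 6909 had a median WT density of 4.09 and a difference of 0.14 (0.13 to 0.15). Of the 437, 20 (4.58%) were over 1.5-fold higher, beside 2.63% of the other members and 0.945% of all ISs on these autosomes. The median GC content was 44.6% in both groups. The 437 lay nearer to a WT IS, at a median of 6117 against 60898 bp, and had 8 against 6 genes within 500 kb. The split rests on WT peaks between listed WT ISs, which bears on that distance, so nothing is read from these differences.

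At the edge of the rule, the members nearest to a WT IS were 50 bp from one on chromosome 6 (137440327 to 137440781) with 4.34 log2 RPM in WT and 4.42 in Rif1KO cells, and 55 bp on chromosome 7 (25224026 to 25224525) with 4.30 and 4.66. Just outside it, an IS on chromosome 11 (93344422 to 93345028) shared 14 bp with a WT IS and had 5.33 and 5.42, and one on chromosome 9 (119363137 to 119363562) shared 96 bp and had 5.27 and 5.14. The differences between WT and Rif1KO cells ran from -0.073 to 0.78 over the 5 ISs nearest the edge inside it and from -0.13 to 0.21 over the 5 nearest outside it, and so overlapped.

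Some strong sites were among the members, and 5 of the 6 with the highest Rif1KO density are given here. The Colq member (chr14:32339583-32340340) had 6.62 log2 RPM in WT, 6.63 in Rif1KO, 4.34 in Rif1KO_shLacZ and 4.42 in Rif1KO_shMcm6 cells. Hairpin values come from another table with its own scale, so their levels are compared with each other, and with WT or Rif1KO values only by rank. Tnpo2 followed with 6.59 and 6.44 in WT and Rif1KO cells, and Mtch1, a gene for a mitochondrial outer membrane protein, with 6.44 and 6.43. An intergenic member 52662 bp from the TSS of Iqsec3 had 6.47 and 6.41, and one 29986 bp from that of Ufm1, which encodes a ubiquitin-like modifier, had 6.20 and 6.38.

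The members with the largest gain, among those with at least median density, rose less than 2-fold. The intergenic member 1095157 bp from the TSS of Pcdh9 (chr14:93189716-93190286) went from 52 reads in WT to 108 in Rif1KO cells (log2 difference 0.90 ± 0.24, counting standard error), at a GC content of 31.9%. The member near Dclk3 went from 45 to 92 reads (0.88 ± 0.26), and one 5711 bp from the TSS of Lce1h, a gene of the cornified envelope cluster, from 44 to 89 (0.86 ± 0.27). A member over an exon of Ctcf, the insulator protein gene (chr8:108203172-108203816), went from 60 to 118 reads (0.82 ± 0.23), a far intergenic member 915406 bp from the TSS of Celf2 from 58 to 114 (0.82 ± 0.23), and an intronic member of Ppid, a cyclophilin gene, from 60 to 116 (0.80 ± 0.23). In the hairpin lines these 6 differed by -0.20 to 0.39 between Rif1KO_shMcm6 and Rif1KO_shLacZ. Over the 202 members past 1.5-fold the median GC content of 500 bp was 41.2% (40.2 to 42.2%), against 44.6% over all members. At promoters were 1.98% (0.773 to 4.98%) of them, against 3.40% of all members. The 202 were picked on the contrast that the rule used, so nothing is read from these values.

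Members were sparse at genes and lay in GC-poor sequence compared with ISs in all 4 lists. The median GC content of the members themselves was 44.3% and that of ISs in all 4 lists 48.7%, a difference of -4.36 percentage points (95% interval -4.61 to -4.07). Members were narrower, with median widths of 388 and 468 bp, and in a fixed window of 500 bp the medians were 44.6 and 48.4%, a difference of -3.8. The surrounding 20 kb differed in the same direction, with 41.5 against 44.6%. Members had a median of 6 protein-coding genes within 500 kb against 9, and 8.33% (7.72 to 8.99%) had none within that distance against 3.47% (3.17 to 3.80%). Of the members, 3.40% (250, 3.01 to 3.84%) lay within 1 kb of the TSS of a protein-coding gene, 2.61% elsewhere over an exon, 28.4% in introns and 65.6% outside genes. Of ISs in all 4 lists these shares were 7.27, 5.54, 32.0 and 55.2%.

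**Figure D2:**
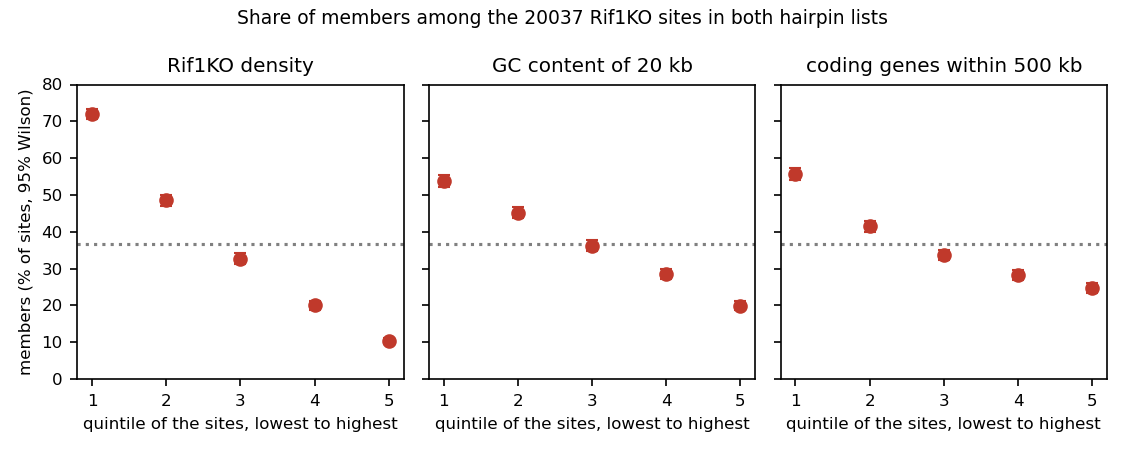
Share of members (y axis, % with 95% Wilson intervals) among 20037 Rif1KO ISs that are in both hairpin lists, in quintiles of Rif1KO density (left), GC content of 20 kb (middle) and number of protein-coding genes within 500 kb (right), each from low to high. The share falls from 72.0 to 10.3% with density, from 53.8 to 19.9% with GC content and from 55.7 to 24.6% with gene number, and the dotted line is the share over all, 36.7%.

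The share of members fell stepwise with the GC content and gene number of the surroundings. Of the 20037 Rif1KO ISs in both hairpin lists, 36.7% were members. This share was 53.8% (52.2 to 55.3%) in the quintile of ISs with the lowest GC content in 20 kb and 19.9% (18.7 to 21.1%) in the highest. It was 55.7% where genes were fewest and 24.6% where they were most numerous. By Rif1KO density it was 72.0% in the lowest and 10.3% in the highest quintile, which is given as a description, since listing used read density. For the same reason the comparison was repeated within quintiles of Rif1KO density. Within these the GC difference in 500 bp stayed between -1.7 and -4 percentage points, and the difference in gene number between -2 and -5, with intervals below 0 in each quintile. The promoter difference varied with density. It was -0.17 (-1.37 to 0.81) and -0.30 (-1.56 to 0.98) percentage points in the 2 lowest quintiles, -2.09 (-3.35 to -0.70) and -3.15 (-4.58 to -1.42) in the next 2 and -5.35 (-7.68 to -2.32) in the highest. Weighted by the number of members, 2886 of which were in the lowest quintile, it averaged -1.16, against -3.87 without the split. The lower promoter share was thus seen in the 3 upper quintiles. WT density, on which calling in WT cells rests, was not matched. The lists also keep only clustered peaks, and the part of this filter in the differences was not tested. In the split by unlisted WT peaks given above, the 437 members had 8 genes within 500 kb and the other 6909 had 6.

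**Figure D3:**
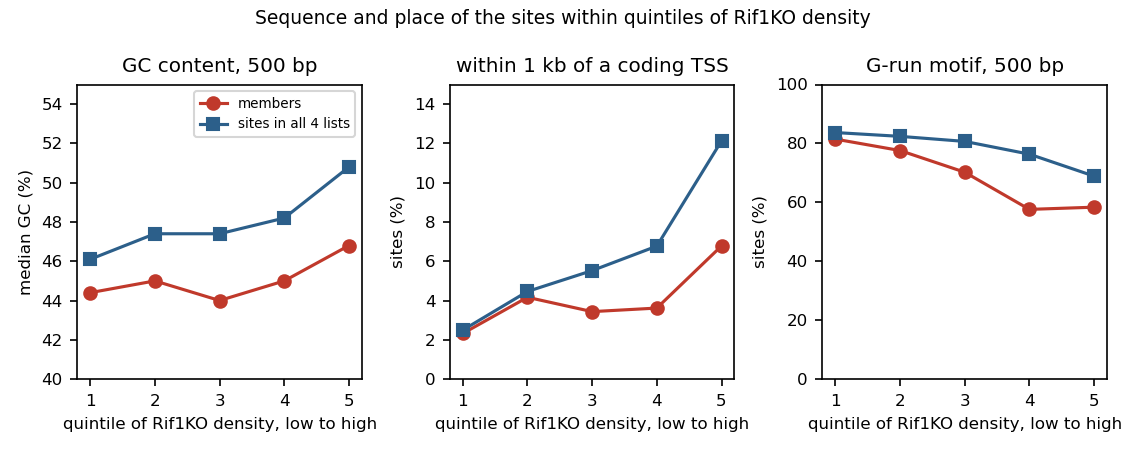
Median GC content of 500 bp (left, %), share of ISs within 1 kb of a coding TSS (middle, %) and share with a G-run motif in 500 bp (right, %) for members (red circles) and ISs in all 4 lists (blue squares) in quintiles of Rif1KO density. Members are lower in GC content in every quintile, while the promoter shares are 2.32 and 2.50% in the lowest quintile and 6.78 and 12.1% in the highest. The GC axis starts at 40%.

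The G-run motif was common in members. It was present in 74.5% (73.5 to 75.5%) of the 500 bp windows around members and in 76.8% (76.0 to 77.5%) of those around ISs in all 4 lists, against 8.39% of 207132 windows of that length sampled evenly along the same autosomes. It lay on the plus strand in 36.9% and on the minus strand in 38.5% of member windows. The sampled windows were not matched for GC content and no input library was used, so enrichment by the assay was not tested. Over the called sites themselves, which are narrower in members, the shares were 73.3 and 81.9%, a gap of -8.58 percentage points (-9.80 to -7.38), where the gap in windows of equal length was -2.25 (-3.50 to -1.02). Within quintiles of density the difference in 500 bp was between -2.23 and -18.7 percentage points, and in the lowest quintile its interval, -4.74 to 0.43, held 0. Tandem repeats with a unit of up to 6 bases and at least 18 bases in all were found in 23.7% of member windows, 23.6% of windows around ISs in all 4 lists and 15.5% of the sampled windows.

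Members often had other ISs absent from the WT list as their neighbours. The median distance from a member to a WT IS was 54161.5 bp, and it was 70925 bp for the other Rif1KO ISs that were not in the WT list. The next Rif1KO IS was 8808.5 bp away, and for 67.6% (66.5 to 68.6%) of members that neighbour was also absent from the WT list, against 19.1% (18.4 to 19.8%) for ISs in all 4 lists. Of all Rif1KO ISs on these autosomes 38.5% were absent from it. These shares rest on list membership, which the rule used, and the lists keep only clustered peaks, so that neighbouring ISs can be left out together, and nothing is read from them. Of the members, 1737 lay within 10 kb of a WT IS, 3044 between 10 and 100 kb, and 2575 farther away. Rif1KO density had medians of 4.19, 4.23 and 4.21 log2 RPM in these classes, and the median log2 difference from WT was 0.15, 0.14 and 0.16. GC content fell from 46.2% (45.6 to 46.6%) through 45% to 43.4% (43.0 to 43.6%), gene number from 9 through 7 to 4, and the promoter share from 4.66% (3.77 to 5.76%) through 3.75% to 2.14% (1.64 to 2.77%). The distance comes from the WT list that the rule used, and no comparison set was split by it. Nothing is therefore read from the fall of GC content, gene number and promoter share with distance.

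Long genes held more members than short ones for the ISs they contained. Members made up 23.4% (21.8 to 25.2%) of the ISs in genes under 50 kb, 29.6% in genes of 50 to 200 kb, 35.1% in genes of 200 to 500 kb and 44.2% (41.2 to 47.3%) in genes over 500 kb, of the ISs that were in both hairpin lists. Outside genes they made up 40.6%. Of 18781 protein-coding genes on these autosomes, 1509 (8.03%) held a member and 740 of these held no IS common to all 4 lists. The annotated genes with most members were Gm20388, a gene model of 4435 kb with 14 members beside 76 ISs common to all lists, and Gpc5, which encodes a glypican, with 13 beside 27. Cntnap2, a neurexin family gene, held 11 members, Ptprd, a receptor phosphatase gene, 11, and Fam190a 10, each with no IS common to all lists. Dlg2, a synaptic scaffold gene, held 11 beside 6, Pcdh9, a protocadherin gene, 11 beside 1, and Fgfr2, a growth factor receptor gene that this annotation gives a length of 3009 kb, 9 beside 15. Phactr1, a phosphatase and actin regulator gene, tied with it at 9 beside 2.

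A list of 30 long genes of cell adhesion and synapse, many of them at known fragile sites, had 26 genes on the autosomes used, of which 23 held a member and 18 an IS common to all 4 lists. They held 98 members and 73 common ISs, so that 57.3% (49.8 to 64.5%) were members, against 44.2% in all genes over 500 kb and 36.7% over all. Of the 98, 97 were in introns. Their median densities were 3.89 log2 RPM in WT, 4.09 in Rif1KO, 3.09 in Rif1KO_shLacZ and 3.20 in Rif1KO_shMcm6 cells. Between the hairpin lines the median was 0.040, beside -0.0076 for members in all genes over 500 kb and -0.053 over all members. The other lists are read against the 8.03% of all genes that held a member, with no account of gene length. Of 13 genes for B cell transcription factors on these autosomes, Bach2, a repressor of plasma cell differentiation, held 2 and Bcl11a, a zinc finger regulator of lymphoid development, held 1 at its promoter, with 4.75 log2 RPM in WT and 4.50 in Rif1KO cells. Of 13 genes of the B cell receptor and surface, Blnk, an adaptor below the receptor, held 2, with WT to Rif1KO differences of -0.044 and 0.0077. Of 22 genes of replication initiation, including those of the MCM, ORC and GINS complexes, 0 held a member and 2 held a common IS. Of 993 olfactory receptor genes 1 held a member, Olfr1490, and of 318 vomeronasal receptor genes 4 did, with WT to Rif1KO differences of 0.22 to 0.36.

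Members gathered in some regions of chromosome 14. Of the 2799 windows of 500 kb with a member, 782 held a single one, and the 3 fullest were on that chromosome. The window from 94500001 to 95000000 held no protein-coding gene, 15 members and 4 ISs common to all lists. The median WT to Rif1KO difference of its members was 0.30, beside 0.15 over all members. The rule used this contrast, so nothing is read from it. The window from 109500001 to 110000000, also without a gene, held 14 members, with differences of 0.029 to 0.50, beside 11 common ISs. The window from 112000001 to 112500000, which holds Slitrk5, a gene for a neuronal transmembrane protein, had 13 members beside 3 common ISs. The fourth, on chromosome 3 from 159000001 to 159500000 with Depdc1a and Rpe65, had 11 beside 5. Chromosome 14 had 6.10 members per Mb, against 2.40 to 4.35 on the other autosomes used, and also the most common ISs per Mb, 11.4. Members made up 34.9% of its ISs in both hairpin lists, within the range of 29.2 to 42.7% over chromosomes.

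The effect of MCM6 depletion was measured in the hairpin lines, whose libraries took no part in the WT to Rif1KO contrast, although the rule requires a member to be called in both of them. The members had a median density of 3.24 log2 RPM in Rif1KO_shLacZ cells (199 reads) and 3.20 in Rif1KO_shMcm6 cells (217 reads). ISs in all 4 lists had 3.56 and 3.46. The median log2 difference, Rif1KO_shMcm6 minus Rif1KO_shLacZ, was -0.053 (-0.059 to -0.045) at members and -0.105 (-0.110 to -0.101) at ISs in all 4 lists. It was -0.011 over all 129937 ISs of the table and -0.043 over the 71885 that were in both hairpin lists on these autosomes. Members thus moved about as ISs called in both hairpin lists did, and ISs also called in WT cells moved lower. The difference between the sets was 0.052 (0.044 to 0.061) and had the same sign on 16 of 16 chromosomes, with a range of 0.024 to 0.097. Within quintiles of Rif1KO_shLacZ density it averaged 0.032, and GC content was not matched. All chromosomes share the same pooled values, so their signs are not replicates. Of the members, 168 shared a merged IS of this table with another member.

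**Figure D4:**
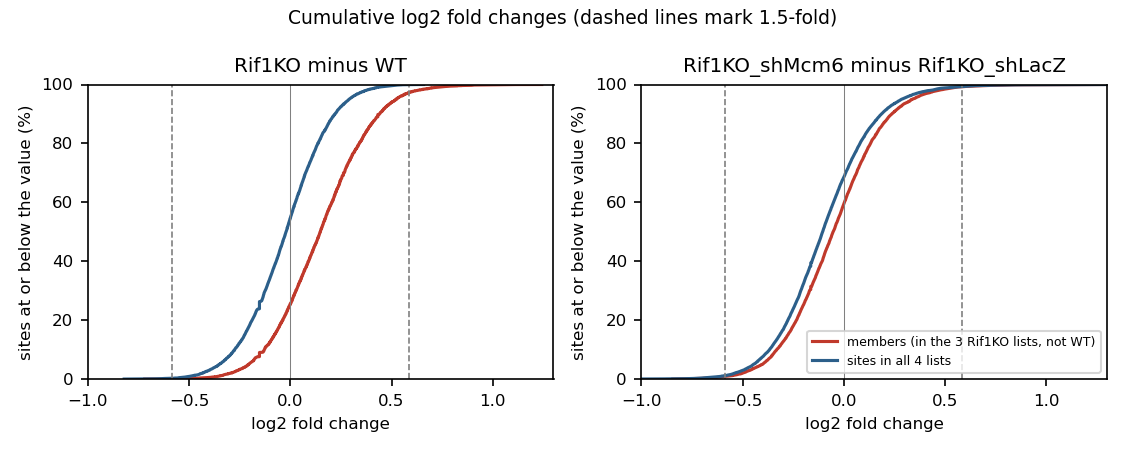
Cumulative share of ISs (y axis, %) at or below each log2 fold change (x axis) for Rif1KO minus WT (left) and Rif1KO_shMcm6 minus Rif1KO_shLacZ (right), for members (red) and ISs in all 4 lists (blue), with dashed lines at 1.5-fold. The curves lie apart on the left, with medians of 0.15 and -0.022, as list membership selects, and close together on the right, with medians of -0.053 and -0.105.

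Few members changed by 1.5-fold upon MCM6 depletion. In Rif1KO_shMcm6 cells 56 members were higher (0.761%, 0.587 to 0.987%), against 4.8% of all ISs in the table and 1.32% of those in both hairpin lists. Another 67 were lower (0.911%, 0.718 to 1.15%), against 1.51% and 0.776%. At ISs in all 4 lists 91 of 12681 were higher (0.718%) and 151 lower (1.19%). The shares of members on either side were therefore near or below the background of ISs called in both hairpin lists. Here the spread between ISs exceeded counting error, with a standard deviation of 0.23 against a median standard error of 0.14.

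**Figure D5:**
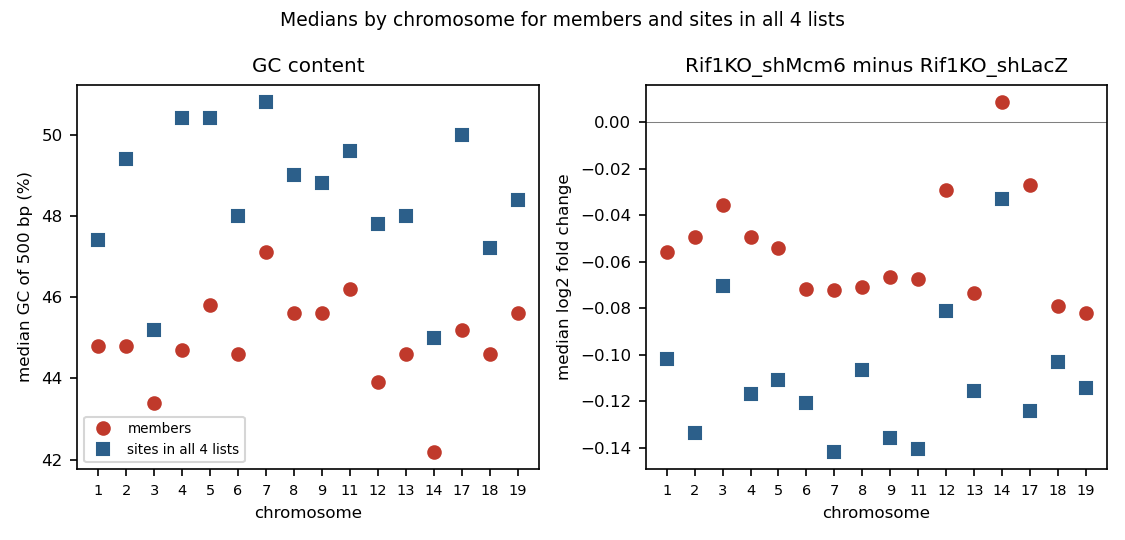
Median GC content of 500 bp (left, %) and median log2 fold change of Rif1KO_shMcm6 over Rif1KO_shLacZ (right) on each of the 16 autosomes used, for members (red circles) and ISs in all 4 lists (blue squares). Members have the lower GC content and the higher fold change on each chromosome, and on chromosome 14 their median fold change is above 0, at 0.0086. The GC axis does not start at 0.

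Among members with at least median density, the upper end was the GGA repeat near Lphn2, a gene for an adhesion receptor (chr3:148461142-148461479), which went from 456 reads in Rif1KO_shLacZ to 1241 in Rif1KO_shMcm6 cells, 2.43-fold (log2 difference 1.28 ± 0.08, counting standard error), while WT and Rif1KO cells had 68 and 67 reads. The intronic member of Macrod2, which is also intronic to the nested gene Flrt3 (chr2:140478076-140478453), went from 164 to 445 reads (1.28 ± 0.13). Members near Irx1 and Sall1, genes for developmental transcription factors, went from 171 to 427 (1.16 ± 0.13) and from 154 to 340 (0.98 ± 0.14), and one 323047 bp from the TSS of Xkr4 from 170 to 342 (0.84 ± 0.14). Between WT and Rif1KO cells these 5 differed by -0.29 to 0.30. The largest loss among them was at the intronic member of Slc24a4, a cation exchanger gene, from 319 to 209 reads (-0.77 ± 0.13). An exonic member of Slc22a7, an organic anion transporter gene, fell by 0.72 ± 0.14 on the log2 scale, an intergenic member on chromosome 6 by 0.69 ± 0.12, an intronic member of Frem2, an extracellular matrix gene, by 0.67 ± 0.08 from 717 to 504 reads, and one near Gpr55 by 0.66 ± 0.13.

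Members past 1.5-fold higher upon MCM6 depletion often held simple repeats. A tandem repeat was found in 29 of the 56 windows of 500 bp (51.8%, 39.0 to 64.3%), against 23.7% over all members. In those past 1.5-fold lower the share was 29.9% (20 of 67, 20.2 to 41.7%), an interval that overlaps that of the higher group. Repeats were examined after the sequences near Lphn2 and in Macrod2 had been seen, and both members are among the 56. Repeats at ISs outside the members past 1.5-fold were not examined. The higher and the lower members were GC-rich, with medians of 51.6% (49.4 to 53.6%) and 50.2% (49.0 to 53.8%). Yet over all members the fold change fell with GC content, from a median of 0.035 in the GC-poorest quintile (24.2 to 39.4% GC) through -0.027, -0.073 and -0.092 to -0.10 in the GC-richest (50.4 to 76.8%). The richest quintile held 33 of the 56 higher and 33 of the 67 lower members. Spearman's rho between fold change and GC content was -0.21 across members and -0.23 across ISs in all 4 lists, as a description over ISs that share 2 pooled values. GC content also fell alongside gene number, and their parts were not told apart.

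By place, the fold change upon MCM6 depletion was lowest in genes' exons and promoters. Its median was -0.14 (-0.18 to -0.10) at the 192 exonic members and -0.10 (-0.15 to -0.05) at the 250 promoter members, -0.066 in introns and -0.042 (-0.049 to -0.034) outside genes. ISs in all 4 lists had -0.17, -0.18, -0.11 and -0.084 in the same order. Members in genes over 500 kb had a median of -0.0076 (-0.030 to 0.012) and those in genes under 50 kb -0.13 (-0.15 to -0.10). Of the strongest promoter members, Tnpo2 had 4.77 log2 RPM in Rif1KO_shLacZ and 4.42 in Rif1KO_shMcm6 cells, a difference of -0.34 ± 0.09, and Hpn, which encodes the protease hepsin, had 4.73 and 4.38, a difference of -0.36 ± 0.09. Mtch1 went the other way with 4.46 and 4.52. A member 499 bp from the TSS of Myh7, the cardiac myosin gene, had 4.68 and 4.60, the member at Bdnf, the neurotrophin gene, 4.30 and 4.11, and that at E130203B14Rik 4.14 in both. Between WT and Rif1KO cells promoter members differed by a median of 0.048 (-0.0068 to 0.093), and intergenic members by 0.16, in the contrast that the rule used.

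Across members, WT and Rif1KO densities had a Spearman's rho of 0.82, Rif1KO and Rif1KO_shLacZ densities 0.42, and Rif1KO_shLacZ and Rif1KO_shMcm6 densities 0.89. For ISs in all 4 lists these were 0.91, 0.60 and 0.90. The pairs within a table were normalised together, and the tables differ in depth, so the values within and across tables are not set against each other. Between the WT to Rif1KO difference of a member and its difference upon MCM6 depletion rho was 0.071 over 7356 members.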

How the data were processed

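SNS-seq libraries of 4 groups, 2 per group, were used. The authors trimmed reads with Trim Galore 0.6.4 and cutadapt 2.6, aligned them uniquely to mm9 with Bowtie 1.2.3, ran MACS on each replicate with no input library, took the consensus of replicates with BedTools and kept peaks within clusters. Unique alignment leaves out reads that match several places, and without an input DNA content stays in the densities. The deposited lists give 1 set of ISs per condition and the number of replicate peaks merged into each. The deposited merged tables give log2 RPM, scaled by the authors to the reads inside ISs, 1 pooled value per condition. Columns with the authors' category of fold change were not used. Values were whole multiples of 1 read, within 0.1 of a read, for 100% of ISs, and the recovered read numbers (3350255 WT, 3724571 Rif1KO, 21071351 Rif1KO_shLacZ, 23602750 Rif1KO_shMcm6) gave Poisson standard errors. Reads include PCR copies and how replicates were pooled is not given in the sources used here, so these errors and all intervals cover counting only.

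Each member took the values of the merged IS it overlapped most. Fold changes are differences of log2 RPM. Shares have 95% Wilson intervals, medians order-statistic intervals, and differences between sets intervals combined from these (Newcombe's method). No p-value was computed, since no replicate values exist in the files, and limma was not run. Genes, exons and TSSs of protein-coding genes came from the GENCODE annotation of NCBIM37, which is mm9, as did the sequence. The named ISs were the 6 members with the highest Rif1KO density (1 of them is not reported here), the 6 promoter members with the highest Rif1KO density, the 6 with the largest WT to Rif1KO gain and the 5 highest and 5 lowest upon MCM6 depletion among members with at least the members' median density, the 8 genes (ties by position, the tied gene also given) and 4 windows of 500 kb with most members, and members in genes of the lists. Members and lists were chosen with earlier results of these data known. Functions were tested on simulated data with Python 3.11.15 and pandas 2.3.3. Alternatives covered the overlap, the distance to a WT IS, windows, thresholds, a pseudocount, a filter on low values, centring, chromosomes and matched density.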

Additional observations from a re-analysis of the deposited data

How the results depend on the processing

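Of 34 values recomputed for 9 results, 10 stayed within the interval of the reported value (or within 1.5 times of a count), 24 moved beyond it and 0 changed direction. Of the alternatives, 5 were chosen after seeing the data. The number of members was 4886 with a 50% overlap of both ISs, which also removes matches to the hairpin lists, and 437 when only stretches with no unlisted WT peak in either replicate counted. The GC difference, -4.36 as reported, was -4.78 with the 50% overlap, -4.73 with no WT IS within 10 kb, -3.8 in 500 bp, -3.03 within density quintiles and -2.48 with both. The promoter difference, -3.87, was -4.74 at 2 kb, -3.24 at 0.5 kb and -1.16 within density quintiles. The difference in gene number, -3, was -1 at 100 kb and -2.72 within density quintiles. The difference in the G-run motif, -8.58, was -2.25 in 500 bp, -7.35 within density quintiles and -6.64 with both. The share of members over 1.5-fold from WT to Rif1KO cells, 2.75%, was 0.109% at 2-fold, 22.1% at the lower threshold tried, 2.08% on log2(RPM + 1) and 1.26% above the lower quartile of density. Upon MCM6 depletion the share, 0.761%, was 0.0408% at 2-fold, 5.74% at the lower threshold and 0.517% on log2(RPM + 1), the median was -0.042 when centred on the table, and the difference from ISs in all 4 lists, 0.052, was 0.032 within quintiles of Rif1KO_shLacZ density. Fewer ISs pass a higher threshold by construction, and other causes were not tested.

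No paired analysis was possible because the files hold 1 pooled value per condition, and for the same reason the values without 1 replicate were not run. A median member rested on 56 WT reads, and the spread of the WT to Rif1KO difference over members, 0.23, was below its nominal counting error, 0.26.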

Other observations

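The chromosomes left out by the rule gave other values. Of the Rif1KO ISs in both hairpin lists, 21.6% (95% Wilson interval 19.3 to 24.0%) were not in the WT list on chromosome 10, 42.1% (39.9 to 44.3%) on chromosome 15 and 64.0% (61.5 to 66.4%) on chromosome 16, against 36.7% (36.0 to 37.4%) on the 16 autosomes used. Among these the median log2 difference from WT to Rif1KO cells was 0.086, 0.34 and 0.39 on chromosomes 10, 15 and 16, where the median over all ISs of the chromosome was -0.36, 0.16 and 0.33. Absence from the WT list uses the same contrast. Between the hairpin lines the medians were -0.033, -0.020 and -0.021. On the X chromosome 32 of 75 were not in the WT list (42.7%, 32.1 to 53.9%). On each of the 3 autosomes left out these ISs were poorer in GC than those in all 4 lists, with 44 against 48.2%, 42.2 against 46.4% and 42.6 against 46.8%, whereas on the X chromosome the medians were 44 and 43.4%.

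The 3093 Rif1KO ISs that were in neither the WT list nor both hairpin lists resembled the members in GC content, with a median of 44.4% in 500 bp against 44.6%. Of them 4.33% (3.67 to 5.11%) were at promoters, against 3.40% (3.01 to 3.84%) of members. A G-run motif was in 71.7% (70.1 to 73.3%) of their 500 bp windows, against 74.5% (73.5 to 75.5%) of member windows. These ISs stood more alone, with 17871 bp to the next Rif1KO IS against 8808.5 bp for members.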
